A study of Homo sapiens with 6 samples.

Results

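ABC transporters are the genes whose symbol is ABC, a subfamily letter from A to G and a number, and 46 of the 56632 genes in the tables met this rule. They comprised 12 genes of subfamily A, 9 of B, 12 of C, 4 of D, 1 of E, 3 of F and 5 of G. Poly(A) RNA had been sequenced from HCT116, an established human colorectal cancer cell line, after knockdown of Matrin3 (siMatrin3, 3 libraries) or after transfection with a control siRNA (siCTRL, 3 libraries). MATR3 encodes Matrin3, an RNA-binding protein of the nucleus that acts on splicing. By the labels, both groups were transfected at an interval of 72 h and collected 48 h after the last transfection. The methods describe biological triplicates, a pool of siRNAs against Matrin3 and an unrelated negative control siRNA, and place a reseeding of the cells at 48 h after the second transfection with a later harvest. Both groups therefore carried an siRNA and a transfection reagent, no untransfected cells were compared here, and effects of the siRNA pool other than loss of Matrin3 were not tested.

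ABC proteins carry a conserved ATP-binding cassette, and most use the energy of ATP to move a substrate across a membrane. Their substrates include drugs and conjugated metabolites, cholesterol and phospholipids, haem precursors, fatty acids bound for peroxisomes, and peptides. Members of subfamilies E and F have the cassette but no membrane-spanning domain, and act on ribosomes and translation instead. In the intestine, ABCB1, ABCC2 and ABCG2 sit in the apical membrane and return drugs and conjugates to the lumen, and in colorectal cancer the family is best known for drug efflux.

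Levels are given as TPM, which divides a gene's reads by transcript length and scales every library to the same total, and can therefore be set side by side between genes. Differences were tested with edgeR on expected counts, and a gene was called where the adjusted p was under 0.05 over all 16786 genes tested. Percentages given for a rise or fall are edgeR's fold changes on counts, and can differ from the change in TPM. The 6 libraries held 40808173 to 54185650 expected counts. MATR3 itself had 95.2, 112 and 111 TPM in siMatrin3 libraries, against 186, 180 and 176 TPM in siCTRL libraries. The message was thus lower and was not lost. Its change in edgeR, on counts and not on these TPM, was -47.48%. All 10 epithelial markers examined, among them EPCAM, KRT8 and CDX2, were at 1 TPM or more in every library. Their summed level was 3224 to 3452 TPM in siMatrin3 libraries and 3487 to 3637 TPM in siCTRL libraries, with no overlap, and its part in the results below was not tested. Of markers of other cell types, PTPRC, APOB, TTR, COL1A2, DCN, LUM and TYR were at 0 in every library. COL1A1, listed for fibroblasts, was at 14.8 to 19 TPM in siMatrin3 and 13.6 to 16.1 TPM in siCTRL. CD68, listed for macrophages, was at 12.1 to 18.2 TPM in siMatrin3 and 11.5 to 16.5 TPM in siCTRL, and PMEL, listed for melanocytes, was at 3.41 to 4.11 TPM in siMatrin3 and 3.41 to 4.44 TPM in siCTRL. Of 6 hepatocyte markers 1 was at 1 TPM or more in every library, and their sum, mostly SERPINA1, was at 3.02 to 3.27 TPM in siMatrin3 and 4.11 to 4.91 TPM in siCTRL, and the sums of the other lists overlapped between the groups.

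The family was broadly expressed at the RNA level. Of the 46 members, 25 were at 1 TPM or more in every library, 11 were under 0.1 TPM in every library, and 10 lay in between or crossed 1 TPM. The highest members in siCTRL were ABCC3 at 75.7 ± 10.4 TPM, ABCC2 at 72.6 ± 2.25 TPM, ABCE1 at 71.2 ± 2.04 TPM and ABCA2 at 70.3 ± 4.02 TPM (SD, n = 3). Neighbours among these 4 overlapped in their siCTRL libraries, so their order was not resolved. ABCF1 followed at 53 ± 2.29 TPM and did not overlap with ABCA2 above it or with ABCF3 below it. In siMatrin3 the order of the leading members was ABCC2, ABCE1, ABCA2 and ABCC3, at 82.7 ± 7.53, 77.1 ± 3.93, 77.1 ± 7 and 66.9 ± 6.79 TPM (SD, n = 3).

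Subfamily C held 32.2% of the summed ABC TPM in siMatrin3 and 32.3% in siCTRL. Subfamilies F and A followed, with F at 20.6% and 21.1% and A at 20.2% and 19.3% in siMatrin3 and siCTRL. Subfamily G, which includes sterol and drug exporters, held 0.605% in siMatrin3 and 0.66% in siCTRL. The summed TPM of all members was 696, 689 and 716 in siMatrin3 libraries and 675, 700 and 662 in siCTRL libraries, and the groups overlapped. As a share of expected counts, the family took 0.19%, 0.189% and 0.197% in siMatrin3 libraries and 0.184%, 0.187% and 0.182% in siCTRL libraries, which did not overlap. The means of the groups thus lay close together by either measure.

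**Figure D1:**
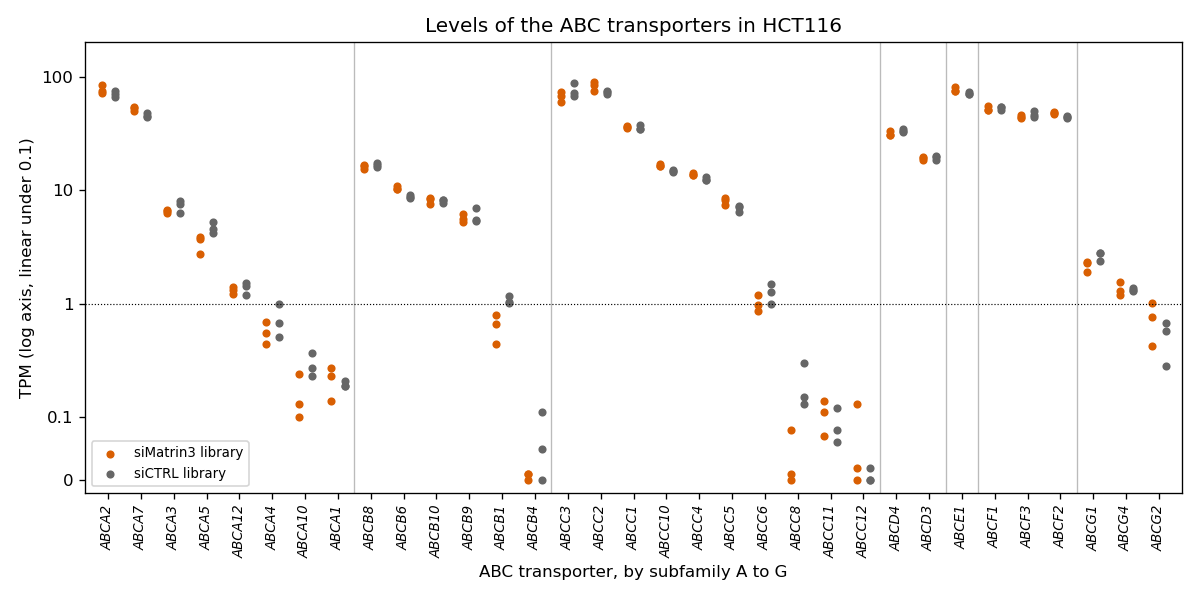
TPM of 33 of the 35 ABC transporters that reached 0.1 TPM in at least 1 library, where each point is a library of siMatrin3 (orange, left) or siCTRL (grey, right), the dotted line marks 1 TPM and vertical lines part subfamilies A to G. Levels ranged from near 0 to 89.5 TPM, and for most members the libraries of the groups lay close together.

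The 11 members under 0.1 TPM in every library included transporters of specialised tissues. They were ABCB11, the bile salt pump of hepatocytes, ABCB5, known from melanocytes, ABCG5 and ABCG8, the paired sterol exporters of enterocytes and liver, ABCC9, a regulatory subunit of KATP channels, ABCD2, a peroxisomal fatty acid transporter, ABCA6, ABCA8, ABCA9 and ABCA13, and the pseudogene ABCC13. Expected counts of 4 members were 0 in every library, and in a library 0 counts allow a level of up to 0.0554 to 0.0735 CPM at the depths here (3 counts, counting error only). In all, 14 members had too few counts to be tested, with at most 7 counts in any library.

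The test covered 32 members and called 7 of them, or 21.9%, against 11.0% of all genes tested. Of the 7, 4 were higher in siMatrin3 (12.5% of the members tested, 5.05% of all genes) and 3 were lower (9.38%, 5.97% of all genes). Under upper quartile scaling the split was 2 higher and 3 lower, and the share of all genes called there was not compared. The median log2 fold change of the 32 members was 0.0024 and that of all genes tested -0.0011, with 16 members above 0 and 16 below. The libraries of the groups did not overlap in normalised counts for 14 members (43.8%), against 31.0% of all genes. In this fit no tested member reached a change of 1 on the log2 scale, while ABCB1 was at -1.06 without siMatrin3 replicate 1, -1.01 without siCTRL replicate 1 and -1.12 without both. In RNA of a whole culture, fewer cells that express a gene and less of its RNA per cell cannot be told apart.

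**Figure D2:**
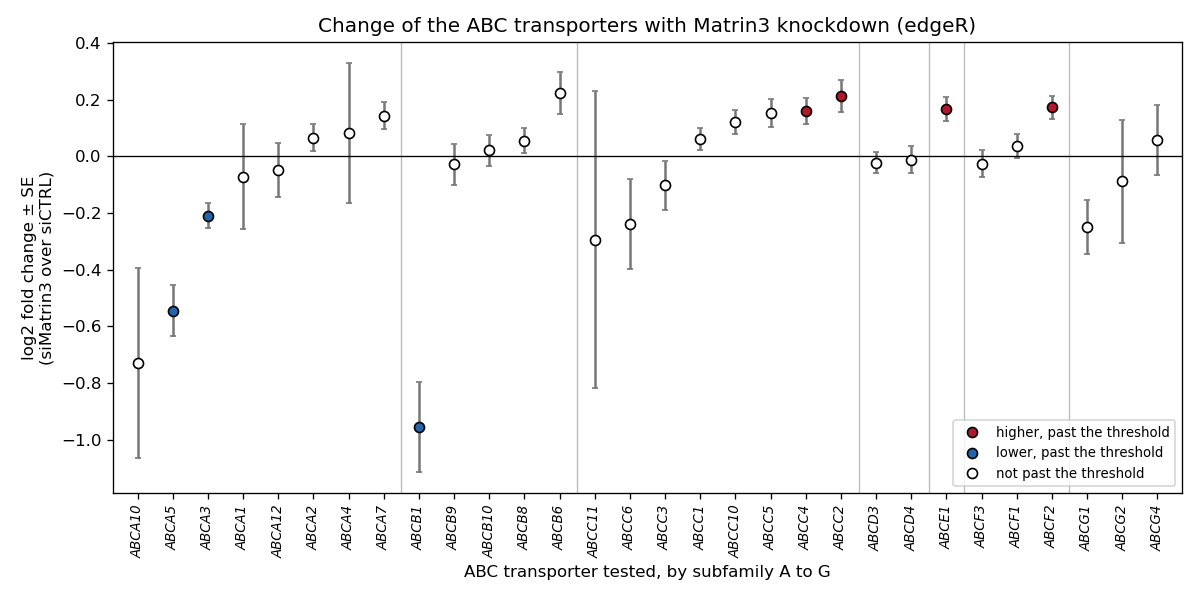
Log2 fold change of siMatrin3 over siCTRL for 30 of the 32 ABC transporters tested, with a standard error derived from edgeR's test. Members are ordered by fold change within subfamilies A to G, with red and blue points for those past the threshold. ABCB1 and ABCA5 were the lowest of the 7 called, and the 4 called higher lay between 0.16 and 0.21.

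Among the 7 called members, ABCB1 and ABCA5 had the largest falls and ABCC2 and ABCF2 the largest rises, and RefSeq promoters of these genes are shown because these genes mark the ends of the called changes. Each window is written in the direction of transcription on GRCh38.p14, from 250 bases before to 50 after the annotated start. RefSeq gives a pair of starts for ABCB1, and the downstream one is shown. Capitals mark exact matches to CCAAT or its reverse complement ATTGG, to the GC box GGGCGG or CCGCCC, and to TATAAA or TTTATA, searched on both strands.
ABCB1 downstream start (chr7:87600835-87601134, minus strand): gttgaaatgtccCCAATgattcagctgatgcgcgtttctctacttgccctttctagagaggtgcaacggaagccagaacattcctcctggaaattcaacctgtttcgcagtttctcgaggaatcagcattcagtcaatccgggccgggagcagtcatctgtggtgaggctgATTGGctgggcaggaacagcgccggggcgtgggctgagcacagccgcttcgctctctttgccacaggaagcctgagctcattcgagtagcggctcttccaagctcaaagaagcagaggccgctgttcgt
ABCA5 (chr17:69327084-69327383, minus strand): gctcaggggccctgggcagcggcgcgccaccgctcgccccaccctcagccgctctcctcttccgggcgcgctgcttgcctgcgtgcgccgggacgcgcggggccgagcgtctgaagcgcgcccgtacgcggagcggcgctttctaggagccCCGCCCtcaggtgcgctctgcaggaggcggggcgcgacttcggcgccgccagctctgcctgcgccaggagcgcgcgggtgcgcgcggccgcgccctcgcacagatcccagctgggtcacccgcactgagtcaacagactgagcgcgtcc
ABCC2 (chr10:99782390-99782689, plus strand): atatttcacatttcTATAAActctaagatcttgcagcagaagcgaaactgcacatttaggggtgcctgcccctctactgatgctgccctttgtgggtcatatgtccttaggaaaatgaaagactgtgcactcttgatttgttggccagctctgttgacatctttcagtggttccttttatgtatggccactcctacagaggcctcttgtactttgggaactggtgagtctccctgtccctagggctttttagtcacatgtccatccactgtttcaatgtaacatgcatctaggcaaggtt
ABCF2 (chr7:151227156-151227455, minus strand): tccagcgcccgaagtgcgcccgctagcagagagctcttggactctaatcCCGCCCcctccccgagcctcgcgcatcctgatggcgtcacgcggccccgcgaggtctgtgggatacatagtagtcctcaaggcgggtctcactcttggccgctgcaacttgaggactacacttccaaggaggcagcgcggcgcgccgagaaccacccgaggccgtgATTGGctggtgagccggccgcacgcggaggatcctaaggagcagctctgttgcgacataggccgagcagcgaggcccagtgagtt

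The ABCB1 window held 2 CCAAT matches, ABCA5 held 1 GC box, ABCC2 held 1 TATAAA match, and ABCF2 held 1 CCAAT match and 1 GC box. The other ABCB1 window, at chr7:87713246-87713545, held none of them. Of 35116 RefSeq promoters, 34.6% held a CCAAT match, 45.0% a GC box and 11.5% a TATAAA match. Windows were found for 35 of the 46 members, and among their 53 windows these shares were 22.6%, 47.2% and 15.1%. Of the windows shown, that of ABCB1 was 55.3% G and C, that of ABCA5 76.3%, that of ABCC2 45% and that of ABCF2 65.3%. Matches are a description of the sequence, and promoter activity was not measured.

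Exporters of drugs and conjugates comprised 12 members, of which 10 were tested. Of these, 2 were higher and 1 was lower, against 5.05% and 5.97% of all genes. ABCB1 (ENSG00000085563, chromosome 7) encodes P-glycoprotein, the classical multidrug efflux pump. It had 0.66, 0.79 and 0.44 TPM in siMatrin3 libraries, against 1.03, 1.17 and 1.02 TPM in siCTRL libraries. The groups did not overlap, and siMatrin3 replicate 3 was the lowest library. The expected counts behind these levels were 83, 59 and 55 in siMatrin3 and 131, 126 and 124 in siCTRL, so the gene was expressed at a low level in both groups. The fold change was -0.96 on the log2 scale (SE 0.16, adjusted p = 0.0055 in edgeR), and the level fell by 48.4%. The call held in every fit that left out a library. With a transcript length offset the log2 fold change was -0.77 and the call was lost, as it was at -0.35 in limma on log2(TPM + 1), and over the alternatives the adjusted p ran from 4.9e-06 to 0.122.

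ABCC2 (ENSG00000023839, chromosome 10) encodes MRP2, an apical exporter of glucuronide and glutathione conjugates. It had 74.6, 84 and 89.5 TPM in siMatrin3 libraries, against 70.2, 74.6 and 72.9 TPM in siCTRL libraries. The groups overlapped in TPM by the margin of siMatrin3 replicate 1 and siCTRL replicate 2, and did not overlap in normalised counts. It was higher by 0.21 on the log2 scale (SE 0.057, adjusted p = 0.0386 in edgeR), a rise of 15.9%. ABCC4 (ENSG00000125257, chromosome 13), MRP4, exports cyclic nucleotides and prostaglandins. It had 14.2, 13.6 and 13.6 TPM in siMatrin3 libraries, against 13, 12.2 and 12.2 TPM in siCTRL libraries, with no overlap. It was higher by 0.16 on the log2 scale (SE 0.045, adjusted p = 0.047 in edgeR), a rise of 11.7%.

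ABCC1 and ABCC3, the other abundant MRP exporters, did not pass the test. ABCC1, which exports glutathione conjugates, had 37.1, 35.4 and 36 TPM in siMatrin3 libraries and 34.5, 37.4 and 34.6 TPM in siCTRL libraries (log2 fold change 0.06, SE 0.039, adjusted p = 0.362 in edgeR). ABCC3, a basolateral exporter of glucuronides, had 73.5, 59.9 and 67.2 TPM in siMatrin3 libraries and 72.3, 87.4 and 67.4 TPM in siCTRL libraries (log2 fold change -0.10, SE 0.087, adjusted p = 0.506 in edgeR). Both overlapped between the groups in TPM, and ABCC3 spread most widely among the siCTRL libraries. In normalised counts ABCC3 overlapped as well. ABCC1 did not, with at least 175.8 CPM in siMatrin3 and at most 174.7 CPM in siCTRL. In the same subfamily, ABCC5 and ABCC10, both exporters of nucleotide analogues or drugs, had log2 fold changes of 0.15 and 0.12. Their edgeR adjusted p-values were 0.0734 and 0.109. ABCC6 was at 1.01 ± 0.172 TPM in siMatrin3 and 1.26 ± 0.25 TPM in siCTRL (SD, n = 3 each). It has pseudogene copies, so its level is uncertain.

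ABCG2, the breast cancer resistance protein, was low and its direction was not resolved. It had 1.02, 0.76 and 0.42 TPM in siMatrin3 libraries, against 0.67, 0.28 and 0.57 TPM in siCTRL libraries. The expected counts were 75, 49 and 46 in siMatrin3 and 70, 40 and 72 in siCTRL. Both measures overlapped between the groups. The log2 fold change was -0.09 (SE 0.217, adjusted p = 0.845 in edgeR), and with a transcript length offset it was 0.55, in the other direction. The abundance-weighted transcript length that RSEM gave for it was 1838, 2003 and 3098 bases in siMatrin3 and 2611, 4479 and 3369 bases in siCTRL, so TPM and counts weigh these libraries differently. The remaining drug exporters, ABCB5, ABCC11 and ABCC12, were at no more than 0.14 TPM in any library.

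**Figure D3:**
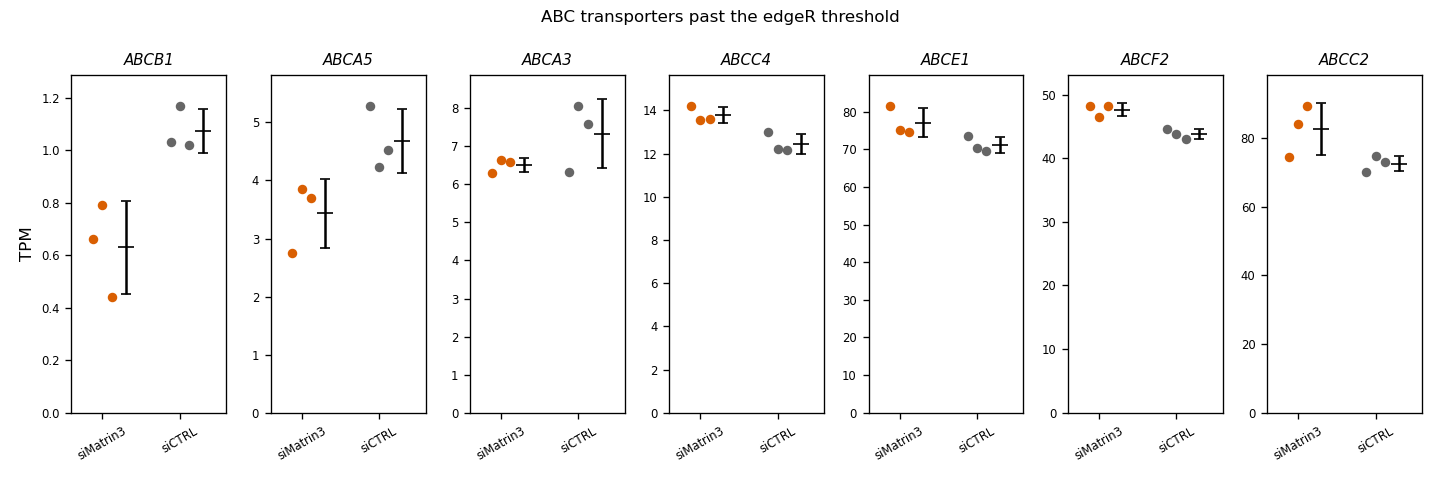
TPM of the 7 ABC transporters past the edgeR threshold, one panel each on an axis that starts at 0, where each point is a library of siMatrin3 (orange, left) or siCTRL (grey, right) and the bar beside the points is the mean and SD of 3 libraries. ABCB1 and ABCA5 show the largest separation, and the libraries of ABCA3 and ABCC2 overlap in TPM.

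Sterol and lipid transporters comprised 16 members of subfamilies A and G, of which 10 were tested. None was higher and 2 were lower, against 5.05% and 5.97% of all genes. At an unadjusted p under 0.05 there were 4 of these members, and the share of all genes at that p was not compared. DESeq2 called ABCA7 higher besides the same 2 lower. ABCA5 (ENSG00000154265, chromosome 17) encodes an endosomal and lysosomal lipid transporter. It had 2.75, 3.86 and 3.69 TPM in siMatrin3 libraries, against 5.29, 4.23 and 4.52 TPM in siCTRL libraries, with no overlap. Its expected counts were 439 in each of the 3 siMatrin3 libraries, which differed in depth, against 779, 537 and 636 in siCTRL. Its log2 fold change was -0.54 (SE 0.091, adjusted p = 0.0055 in edgeR), a fall of 31.4% by counts. The call held in every fit that left out a library. With a transcript length offset the log2 fold change was -0.44 and the call was lost, as it was at -0.36 in limma on log2(TPM + 1), with adjusted p over the alternatives from 2.52e-08 to 0.166.

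ABCA5 shares exons on the same strand with ABCA10 in the annotation used for names, so reads of the pair may be divided between them. ABCA10 had 18, 11 and 12 expected counts in siMatrin3 and 35, 17 and 17 in siCTRL, and did not pass the test (log2 fold change -0.73, SE 0.334, adjusted p = 0.198 in edgeR). Its expected counts overlapped between the groups. Its normalised counts did not, with at most 0.379 CPM in siMatrin3 and at least 0.392 CPM in siCTRL. How the reads were divided between the pair was not tested. ABCA3 (ENSG00000167972, chromosome 16), which moves phospholipids into lamellar bodies of lung cells, had 6.31, 6.64 and 6.58 TPM in siMatrin3 libraries, against 6.33, 8.07 and 7.59 TPM in siCTRL libraries. The groups overlapped in TPM because siCTRL replicate 1 was low, and did not overlap in normalised counts. Its log2 fold change was -0.21 (SE 0.045, adjusted p = 0.0157 in edgeR), a fall of 13.5% by counts.

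ABCA2, the highest member of subfamily A and a lysosomal lipid transporter, had 71.8, 74.5 and 85 TPM in siMatrin3 libraries and 74.3, 66.2 and 70.5 TPM in siCTRL libraries (log2 fold change 0.07, SE 0.048, adjusted p = 0.437 in edgeR). ABCA7, a phospholipid transporter linked to Alzheimer's disease risk, was at 52.2 ± 2.08 TPM in siMatrin3 and 45.7 ± 2.12 TPM in siCTRL (SD, n = 3 each). Its libraries did not overlap, and it missed the threshold in edgeR (log2 fold change 0.14, adjusted p = 0.0842) but passed it in DESeq2. ABCA12, a lipid transporter of skin, was at 1.31 ± 0.0954 TPM in siMatrin3 and 1.38 ± 0.161 TPM in siCTRL, and ABCA4, known from the retina, at 0.56 ± 0.125 TPM in siMatrin3 and 0.727 ± 0.25 TPM in siCTRL (SD, n = 3 each). Neither passed the test.

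ABCA1 and ABCG1, which load cholesterol onto lipoproteins, were both low. ABCA1 had 0.14, 0.23 and 0.27 TPM in siMatrin3 libraries and 0.19, 0.21 and 0.19 TPM in siCTRL libraries (log2 fold change -0.07, SE 0.186, adjusted p = 0.85 in edgeR). ABCG1, the highest member of subfamily G, had 2.26, 1.89 and 2.33 TPM in siMatrin3 libraries and 2.77, 2.78 and 2.38 TPM in siCTRL libraries (log2 fold change -0.25, SE 0.096, adjusted p = 0.125 in edgeR). The ABCG1 libraries did not overlap, yet the difference did not pass the test, and those of ABCA1 overlapped. ABCG4, a relative of ABCG1 known from brain, was at 1.34 ± 0.18 TPM in siMatrin3 and 1.33 ± 0.04 TPM in siCTRL (SD, n = 3 each).

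The wider sterol efflux pathway was examined with a list of 18 genes, of which 17 were tested. Of these, 2 were higher and none was lower, against 5.05% and 5.97% of all genes. Their median log2 fold change was 0.04. NR1H3, which encodes the oxysterol receptor LXR-alpha that activates ABCA1 and ABCG1, had 17, 17.2 and 19 TPM in siMatrin3 libraries, against 14.3, 13.1 and 12.4 TPM in siCTRL libraries (log2 fold change 0.40, SE 0.07, adjusted p = 0.0064 in edgeR). SCARB1, the HDL receptor SR-BI, had 74.9, 68.4 and 75.2 TPM in siMatrin3 libraries, against 62.1, 60.4 and 64.4 TPM in siCTRL libraries (log2 fold change 0.23, SE 0.046, adjusted p = 0.0132 in edgeR). Neither gene overlapped between the groups. NR1H3 was higher in the same libraries in which ABCA1 and ABCG1 did not pass the test. Activity of the receptor was not measured, and a link between its RNA and that of ABCA1 or ABCG1 was not tested.

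Translation factors of subfamilies E and F comprised 4 members, all expressed. Of these, 2 were higher and none was lower, against 5.05% and 5.97% of all genes. ABCE1 (ENSG00000164163, chromosome 4) splits ribosomes after termination so that they can be used again. It had 81.7, 75.1 and 74.7 TPM in siMatrin3 libraries, against 73.5, 70.4 and 69.7 TPM in siCTRL libraries. The groups did not overlap, by the margin of siMatrin3 replicate 3 and siCTRL replicate 1. ABCE1 was higher by 0.17 on the log2 scale (SE 0.042, adjusted p = 0.0297 in edgeR), a rise of 12.3%. ABCE1 overlaps ANAPC10 and OTUD4 on the other strand. The kit was stranded, and whether strand was used in counting is not given in the sources used here.

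ABCF2 (ENSG00000033050, chromosome 7) is a cytosolic ABC protein of the same class. It had 48.3, 46.4 and 48.2 TPM in siMatrin3 libraries, against 44.7, 43.8 and 43 TPM in siCTRL libraries, with no overlap. ABCF2 was likewise higher by 0.17 on the log2 scale (SE 0.04, adjusted p = 0.0214 in edgeR), a rise of 12.7%. In the annotation used for names it shares exons with a read-through gene, ABCF2-H2BK1, which was not analysed here. ABCF1, which binds initiation factor eIF2 and was the highest of subfamily F, had 51.2, 51.3 and 54.6 TPM in siMatrin3 libraries and 54.5, 54.2 and 50.4 TPM in siCTRL libraries (log2 fold change 0.04, SE 0.042, adjusted p = 0.644 in edgeR). ABCF3 was at 44 ± 1.29 TPM in siMatrin3 and 46.5 ± 2.73 TPM in siCTRL (SD, n = 3 each) and did not pass the test either. Of 22 genes of ribosome recycling and the response to stalled ribosomes, 21 were tested and 1 was higher, close to the 5.05% of all genes. It was the integrated stress response activator GCN1 (log2 fold change 0.18, SE 0.045, adjusted p = 0.0321 in edgeR). The median of the list was 0.07.

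Mitochondrial and haem transporters of subfamily B comprised 4 members, all of them expressed and tested. None was called in edgeR, which called 11.0% of all genes, and 0 were called with DESeq2. At an unadjusted p under 0.05 there was 1, and the share of all genes at that p was not compared. ABCB8, the highest member of subfamily B and a protein of the mitochondrial inner membrane, had 15.3, 16.3 and 16.8 TPM in siMatrin3 libraries and 15.9, 17.4 and 16.7 TPM in siCTRL libraries (log2 fold change 0.06, SE 0.043, adjusted p = 0.465 in edgeR). ABCB6, a porphyrin transporter, was at 10.5 ± 0.413 TPM in siMatrin3 and 8.73 ± 0.272 TPM in siCTRL (SD, n = 3 each). Its libraries did not overlap, and its log2 fold change of 0.22 had an edgeR adjusted p of 0.0814. ABCB10, which serves haem synthesis, had a log2 fold change of 0.02 and did not pass the test. ABCB6, ABCD4 and ABCC11 each have exons in common with a same-strand neighbour in the annotation used for names, and their levels are uncertain to that extent. Of 22 genes of mitochondrial iron-sulfur and haem synthesis, 21 were tested and 1 was higher, close to the 5.05% of all genes. It was the cysteine desulfurase NFS1 (log2 fold change 0.23, SE 0.066, adjusted p = 0.0466 in edgeR), and the median of the list was 0.0085.

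Peroxisomal and lysosomal transporters of subfamily D comprised 4 members, of which 3 were expressed and tested. None of these was called (0 at an unadjusted p under 0.05, and 0 with DESeq2), while edgeR called 11.0% of all genes. ABCD4, which brings cobalamin out of lysosomes and was the highest of the subfamily, had 30.4, 33.3 and 30.3 TPM in siMatrin3 libraries and 32.4, 34.7 and 32.9 TPM in siCTRL libraries (log2 fold change -0.01, SE 0.047, adjusted p = 0.907 in edgeR). ABCD3, a peroxisomal importer of branched fatty acids, had a log2 fold change of -0.02. Both overlapped between the groups. A list of 20 genes held peroxisomal oxidation and import genes together with the cobalamin genes MMACHC and LMBRD1. All were tested, and 2 were higher and 1 was lower, against 5.05% and 5.97% of all genes. The lower one was not peroxisomal but LMBRD1, the lysosomal partner of ABCD4, with 8.95, 10.3 and 9.64 TPM in siMatrin3 libraries against 11.9, 11.5 and 11.9 TPM in siCTRL libraries (log2 fold change -0.27, SE 0.067, adjusted p = 0.0302 in edgeR). The median of the list was -0.016.

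The regulators of KATP channels and the transporters of bile were at trace level. ABCC8, the sulfonylurea receptor of pancreatic beta cells, had 1, 2 and 1 expected counts in siMatrin3 libraries and 6, 2 and 4 in siCTRL libraries, too few to test. KCNJ11, which encodes the channel pore that ABCC8 regulates, was at 5.33 ± 0.514 TPM in siMatrin3 and 5.71 ± 0.424 TPM in siCTRL (SD, n = 3 each, adjusted p = 0.0882 in edgeR). ABCB4, which exports phospholipid into bile, was at no more than 0.11 TPM.

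Some family genes bear other symbols. TAP1, which carries peptides into the endoplasmic reticulum for MHC class I, was lower, with 18.8, 19.1 and 18.3 TPM in siMatrin3 libraries against 21.8, 20.3 and 22.4 TPM in siCTRL libraries (log2 fold change -0.18, SE 0.05, adjusted p = 0.044 in edgeR). Its partner TAP2 was at 28.5 ± 1.34 TPM in siMatrin3 and 28.2 ± 3.92 TPM in siCTRL (SD, n = 3 each), and ABCB9, the related peptide transporter of lysosomes, had a log2 fold change of -0.03. Of 10 further genes of class I peptide loading and trimming, none was higher and 3 were lower, against 5.05% and 5.97% of all genes. Their median log2 fold change was -0.11. TAPBP, which encodes tapasin, the bridge between TAP and class I molecules, had 32, 34 and 33.5 TPM in siMatrin3 libraries against 39.6, 40.2 and 41.3 TPM in siCTRL libraries (log2 fold change -0.29, SE 0.045, adjusted p = 0.0037 in edgeR). The trimming peptidase ERAP1 had a log2 fold change of -0.45 (SE 0.104, adjusted p = 0.0211 in edgeR), and in limma on log2(TPM + 0.1) it was at -0.68 with the call lost. ERAP1 overlaps CAST on the other strand, as NR1H3 does ACP2 and LMBRD1 does COL19A1. CFTR, the chloride channel of the family, was listed at 0 in 5 of the 6 libraries.

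Regulators of drug transporters and conjugating enzymes made up a list of 22 genes, of which 20 were tested. Of these, 1 was higher and 2 were lower, against 5.05% and 5.97% of all genes. Their median was -0.04. HMOX1, the stress-induced haem oxygenase, had 30.2, 26 and 25.1 TPM in siMatrin3 libraries against 21, 18 and 18.5 TPM in siCTRL libraries (log2 fold change 0.54, SE 0.077, adjusted p = 0.0027 in edgeR). ARNT, a subunit of the aryl hydrocarbon receptor, had 16.5, 15.1 and 14.3 TPM in siMatrin3 libraries against 17.3, 16.2 and 18.3 TPM in siCTRL libraries (log2 fold change -0.19, SE 0.039, adjusted p = 0.0138 in edgeR). AHR, the other subunit, had 10.4, 10.6 and 11 TPM in siMatrin3 libraries against 11.2, 10.3 and 11.7 TPM in siCTRL libraries (log2 fold change -0.19, SE 0.037, adjusted p = 0.0109 in edgeR). The groups overlapped in TPM for both. Both calls were lost with a transcript length offset, where the log2 fold change of AHR was -0.036 and that of ARNT -0.16, and in limma on log2(TPM + 1) and log2(TPM + 0.1), where AHR was at -0.047 and -0.05. Of the 14 calls in these lists, those of HMOX1, NR1H3 and TAPBP held in all 17 alternatives. The other 11 were all lost without siMatrin3 replicate 3, and 10 of them also without siCTRL replicate 3. The share of all genes called in those fits was not compared.

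Calls of the smaller changes in the family did not hold in every fit that left out a library. These fits had fewer libraries, and the share of all genes called in them was not compared. Without siMatrin3 replicate 2, siMatrin3 replicate 3 or siCTRL replicate 3, no member was called higher and ABCA5 and ABCB1 alone were called lower. Without siMatrin3 replicate 1, ABCC2 was the only member called higher, and without siCTRL replicate 2, ABCF2 was. Without siCTRL replicate 1, ABCC4, ABCE1 and ABCF2 were higher and ABCC2 was not. No called member changed direction under any alternative, with log2 fold changes of 0.16 to 0.27 for ABCC2, 0.13 to 0.19 for ABCC4, 0.11 to 0.19 for ABCE1, 0.12 to 0.18 for ABCF2 and -0.25 to -0.14 for ABCA3.

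Calls also differed between the fits on counts and those with a length offset or on TPM, and limma on TPM changes the test as well as the unit. DESeq2 on the same counts called 5 of 32 members tested higher and 3 lower, while it called 10.8% of all genes in either direction. With a transcript length offset, no member passed the threshold, while 4.21% of all genes did. With limma on log2(TPM + 1), again no member passed, while 2.6% of all genes did. At an unadjusted p under 0.05 there were 11 members with the offset and 10 with limma. The share of all genes at an unadjusted p under 0.05 was not compared. The 7 members kept their direction in these fits.

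**Figure D4:**
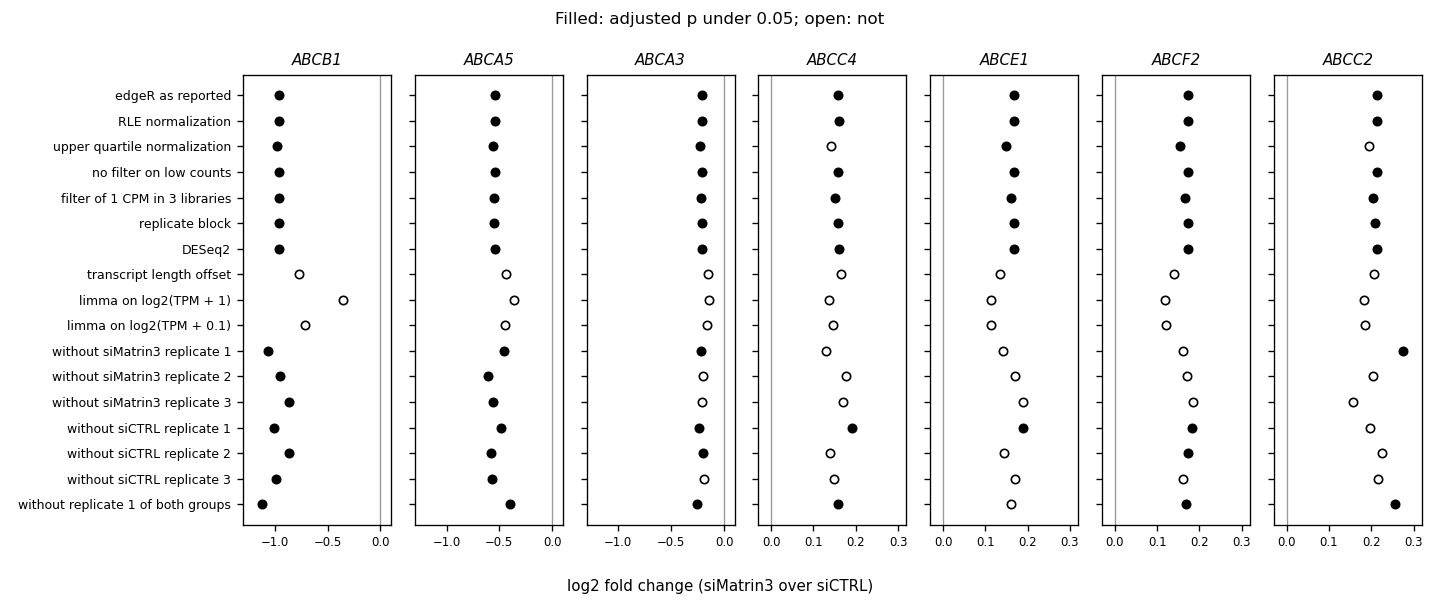
Log2 fold change of siMatrin3 over siCTRL for the 7 called ABC transporters (panels) in the edgeR fit and under the alternatives (rows), filled where the adjusted p was under 0.05 and open where it was not, with a wider axis range for the 3 that were lower than for the 4 that were higher. Every point stays on its side of 0, and the fits on TPM or with a length offset are open in every panel.

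Because Matrin3 acts on splicing, the mean transcript length that RSEM gave for each gene was also compared. It is weighted by the estimated abundance of the annotated transcripts, so a difference is a shift among transcripts of different length and does not show which exon moved. Of 27 members tested with limma on log2 length, none passed the threshold and 0 had an unadjusted p under 0.05, while 1 of 11984 genes was called (0.00834%) and 732 had an unadjusted p under 0.05. Differences ran from -0.19 to 0.08 on the log2 scale. ABCB8 was the only member whose groups did not overlap, against 10.8% of all genes tested, with 2950, 2798 and 2760 bases in siMatrin3 libraries and 2701, 2734 and 2622 bases in siCTRL libraries (limma adjusted p = 0.821). ABCA1 had 10494, 8579 and 8699 bases in siMatrin3 libraries and 10494 bases in each siCTRL library, and passed the threshold without siMatrin3 replicate 1 and under no other alternative (log2 difference -0.28, adjusted p = 0.0471).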

How the data were processed

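Poly(A) RNA of HCT116 cells was measured in 3 siMatrin3 and 3 siCTRL libraries, grouped by their labels. According to the methods and the submitters' processing notes, the authors aligned reads to hg19 with STAR (2.5.1 in the notes, another version in the methods) and estimated gene levels with RSEM. The deposited tables hold expected counts, in which RSEM divides shared reads, TPM scaled by the authors to a common total, and an abundance-weighted transcript length in bases, averaged by the authors' RSEM. Deposited FPKM was not used. The time of harvest differs between the labels and the methods.

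Symbols came from GENCODE release 44 (GRCh38), which named 88.3% of genes, and 47 identifiers met the rule, of which 46 were in the tables. Promoters came from RefSeq (GRCh38.p14). No coordinates on hg19 are given.

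The main test was edgeR's quasi-likelihood test (version 4.0.16 in R 4.3.3, two-sided, no covariates) on rounded expected counts after filterByExpr and TMM, with Benjamini-Hochberg adjustment. For length, limma 3.58.1 was run on log2 values of genes having 2 or more transcripts and 50 or more expected counts in every library, leaving out 164 genes of constant length. Steps were tested on simulated data. Depth was 40808173 to 54185650 expected counts, and edgeR's common coefficient of variation was 5.98%. Each SE given for edgeR was the absolute log2 fold change divided by the square root of the test's F statistic. P-values cover only the spread among the 3 libraries of each group.

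Fits were repeated with DESeq2 1.42.0, scaling by RLE or the upper quartile, unfiltered genes or those at 1 CPM in 3 libraries, an offset for transcript length, limma on log2 TPM with 1 or 0.1 added, the replicate number as a block, a threshold of 0.01, and without each library or both replicates 1. Length was also tested at minimums of 20 and 200 counts and on effective length. Named genes were members past a threshold, the highest member of each subfamily in siCTRL, ABCB1, ABCC1, ABCG2, ABCA1, ABCG1, ABCE1, MATR3, and up to 4 called genes of each list. Other members named with values (ABCA7, ABCA10, ABCB6, ABCC5, ABCC8 and the like) were chosen after their values were seen. Members and lists were chosen with earlier results of these data known. Some genes that the rule for names covers are not reported here.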

Additional observations from a re-analysis of the deposited data

How the results depend on the processing

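The number of ABC transporters called higher, 4, was 2 under upper quartile scaling, and 0 at an adjusted p under 0.01, in limma on log2(TPM + 1) or log2(TPM + 0.1), and after an offset for transcript length. The number called lower, 3, was 0 with the length offset and in both limma fits. Leaving out 1 library gave 0 to 3 members higher and 2 to 3 lower, and 0 to 1 member past the threshold for weighted length. The share of all genes called was not compared in the fits without a library. Nor was it compared under upper quartile scaling, at the threshold of 0.01 or in limma on log2(TPM + 0.1). The causes were not tested.

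With the replicate number as a block, 6 of 32 members tested were higher and 3 lower, and the share of all genes called in that fit was not compared. Deviations of same-numbered libraries from their group means correlated at 0.51, 0.19 and -0.03 over 10303 genes, and siMatrin3 replicate 2 correlated best with siCTRL replicate 3 (0.46), so the numbers were not taken to pair the libraries. Over all genes, DESeq2 and edgeR called similar shares.

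Members that were not called changed sign in some fits. ABCA1 was at 0.13 with the length offset, 0.019 and 0.056 in limma on log2(TPM + 1) and log2(TPM + 0.1), and 0.061 without both replicates 1, and between -0.22 and 0.072 when 1 library was left out. ABCB8 was at -0.032, -0.047 and -0.0497 and ABCF1 at -6.13e-06, -0.017 and -0.018 in the length offset and limma fits, and ABCG2 at 0.55, 0.20 and 0.45. Leaving out 1 library gave -0.24 to 0.044 for ABCG2 and -0.035 to 0.022 for ABCD4, and ABCD4 was at 0.00078 without both replicates 1. The 7 called members kept their direction in all 119 fits of single members and their call in 68. The number expressed was 26 at 0.5 TPM and 22 at 2 TPM. Levels of the 14 members not tested were limited by depth.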
